A study of Homo sapiens with 4 samples.

Results

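Integrins and laminins join epithelial and tumor cells to the matrix around them, and the RNA of every chain of both families was followed in SUM159 cells treated with palbociclib and indisulam. The members were the protein-coding genes whose symbol is ITGA or ITGB with the code of a chain, or LAMA, LAMB or LAMC with a digit. The rule uses the symbol and the gene type and no measured value. Genes of integrin-binding proteins, antisense transcripts, pseudogenes and the integrin-like gene ITGBL1 were left out. This gave 38 of the 60279 genes listed in the count tables, namely 18 integrin alpha chains, 8 integrin beta chains and 12 laminin chains.

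SUM159 is an established triple negative breast cancer (TNBC) cell line, and all 4 libraries came from it, grown in the same medium with serum, insulin and hydrocortisone. There was 1 library each for untreated cells, cells given palbociclib, cells given indisulam and cells given both drugs (the combination). Palbociclib blocks CDK4 and CDK6, kinases that drive the cell cycle, and indisulam brings the splicing factor RBM39 to a ubiquitin ligase, which leads to its degradation. The sample labels give 0.5 µM palbociclib and 2 µM indisulam over 10 days. The text on the series gives 2 µM palbociclib and 3 µM indisulam over 16 h, in technical duplicates. The authors describe both settings for SUM159, in separate RNA sequencing experiments, the first for senescence signatures and the second for splicing errors. The sample labels match the first and the series text the second. As the records of these libraries differ, no result is tied to a dose or a duration. Whether a library pools duplicates is not known. With a single library per condition there was no replicate error and no p-value, and a difference between cultures or runs cannot be told apart from one between conditions. A single cell line limits what the values stand for, and counts per gene do not separate the isoforms of a gene.

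An integrin is a receptor of an alpha and a beta chain that spans the cell membrane, and the alpha chain largely sets which matrix protein is bound. Collagens, laminins and proteins with the tripeptide RGD (arginine, glycine, aspartate), such as fibronectin, are the main ligands. Laminins are secreted trimers of an alpha, a beta and a gamma chain and are a core part of basement membranes. LAMA3 and LAMB3 are chains of the laminin that anchors epithelial cells through hemidesmosomes, where it is bound by the integrin of ITGA6 and ITGB4.

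Levels are given as CPM, the reads of a gene per 1000000 reads in genes of that library. A log2 ratio between libraries was taken after each library was scaled to the same total and 1 scaled count was added, and the brackets beside it hold the lower and upper end of its 95% interval from counting error alone. A gene was called higher or lower when it differed 2-fold or more and 0 lay outside this interval, among the 14269 genes with a mean of at least 1 CPM. To bound the variation that counting error leaves out, the departure from additivity was used, which is the log2 ratio of the combination to untreated minus those of both single drugs. Its robust standard deviation over genes of like level, divided by the square root of 2, holds the noise of the libraries and any true interaction of the drugs. It therefore sets an upper bound on the typical spread of a single log2 ratio, called the spread bound below. The spread bound was 0.62 for genes at 1 to 5 CPM, 0.37 at 5 to 20 CPM, 0.26 at 20 to 100 CPM and 0.28 above. It is 1 standard deviation taken over many genes, so a ratio can pass it through noise alone. A given gene can also vary more between libraries.

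Reads in genes numbered 12555908 to 16712174 per library. Mitochondrially encoded genes took between 4.90% and 7.33% of them. The mesenchymal markers VIM and CD44 stood at 2643 to 4598 CPM and at 706 to 883 CPM, while ESR1, PGR, CDH1 and EPCAM did not exceed 1.95 CPM. ERBB2 was read at 109.6 to 143 CPM. Among markers of other cell types, CD3E, SOX10 and CKM had no read in any library, which allows up to 0.239 CPM in the shallowest, and the summed levels were 15.9 to 21.5 CPM for leukocyte markers, 16.9 to 45.0 CPM for endothelial markers, 0.88 to 3.90 CPM for Schwann cell markers and at most 0.49 CPM for muscle markers. PTPRC (11.1 to 17.5 CPM) and PECAM1 (15.2 to 40.9 CPM) made up most of the leukocyte and endothelial sums.

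Of the 38 members, 28 passed the filter on low values. ITGA4 and ITGA8 had no read in any library. The other 8 members below the filter were read at most 43 times in a library, namely ITGA9, ITGAD, ITGAL, ITGAM, ITGB6, ITGB7, LAMB4 and LAMC3. ITGA9 had its 43 reads in the indisulam library, against 6, 0 and 3 in the untreated, palbociclib and combination libraries. The plot of levels by library shows the tested members reported one by one.

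**Figure D1:**
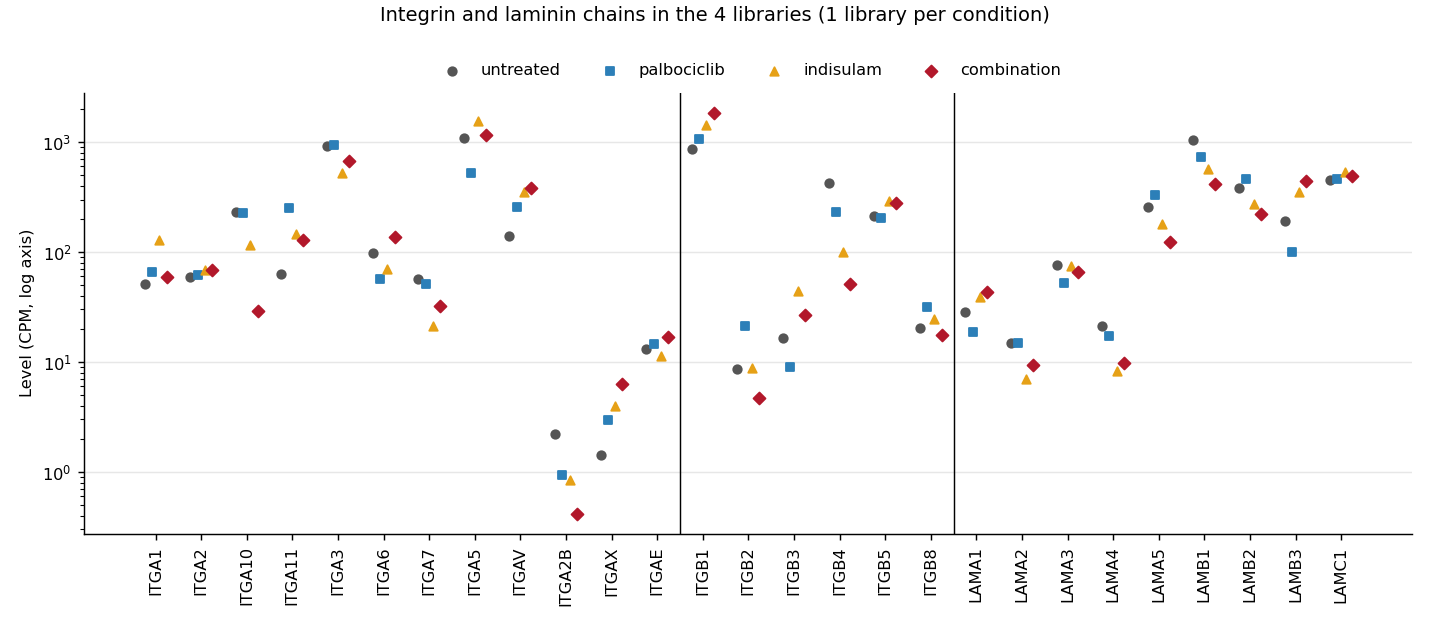
Level of the tested integrin and laminin chains described one by one in the 4 libraries, in CPM on a log axis, with 1 point per library. Integrin alpha chains are on the left, integrin beta chains in the middle and laminin chains on the right. ITGB4 descends from 422 to 51.2 CPM in the order untreated, palbociclib, indisulam and combination, and ITGB1 is highest with the combination, at 1847 CPM against 863 in untreated cells.

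Promoter windows were read to show the sequence from which some of these chains are transcribed. RefSeq windows on GRCh38.p14, from 250 bases before to 50 bases after an annotated start, were found for 26 of the 38 members (33 windows). Those without one included ITGA3, ITGA7, ITGA9, ITGAD, ITGAL, ITGAX, ITGB2, ITGB3, ITGB4, LAMA1 and LAMC3. The letters TGANTCA, bound by AP-1 factors, and GGAATG, bound by TEAD factors, were searched on both strands, as both factor families act on matrix and adhesion genes. TGANTCA was present in 7.71% of the 35116 windows of all genes and in 3 of the 33 member windows (of ITGA5, LAMA3 and LAMB3). GGAATG was present in 14.0% of all windows and in 4 of the 33 member windows (of ITGA10, ITGA5, ITGB1 and LAMA2). LAMA3 and LAMB3 are shown because their products join in the same trimer, ITGA5 because its window held both motifs, and ITGA10 because it is the alpha chain with the largest difference between the combination and untreated cells. Each sequence runs 5′ to 3′ on the strand of its gene, capitals mark matches to either motif, and no match of one overlapped a match of the other. The LAMA3 window is chr18:23872770-23873069 (plus strand), at a start inside the gene span, the LAMB3 window, at the third of its annotated starts, is chr1:209651325-209651624 (minus strand), the ITGA5 window is chr12:54419217-54419516 (minus strand) and the ITGA10 window is chr1:145910001-145910300 (minus strand).
LAMA3: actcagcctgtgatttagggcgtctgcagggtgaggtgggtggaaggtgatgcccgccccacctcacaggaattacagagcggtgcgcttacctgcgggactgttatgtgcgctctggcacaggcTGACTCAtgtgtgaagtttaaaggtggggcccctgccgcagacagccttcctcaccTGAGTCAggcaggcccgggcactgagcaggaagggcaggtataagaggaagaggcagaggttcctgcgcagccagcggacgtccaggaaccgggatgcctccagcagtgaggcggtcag
LAMB3: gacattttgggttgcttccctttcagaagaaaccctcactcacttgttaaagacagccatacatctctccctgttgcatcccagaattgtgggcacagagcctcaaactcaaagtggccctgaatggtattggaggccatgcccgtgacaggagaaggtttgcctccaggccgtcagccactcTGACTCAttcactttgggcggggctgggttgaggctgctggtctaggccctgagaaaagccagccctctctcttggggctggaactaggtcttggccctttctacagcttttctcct
ITGA5: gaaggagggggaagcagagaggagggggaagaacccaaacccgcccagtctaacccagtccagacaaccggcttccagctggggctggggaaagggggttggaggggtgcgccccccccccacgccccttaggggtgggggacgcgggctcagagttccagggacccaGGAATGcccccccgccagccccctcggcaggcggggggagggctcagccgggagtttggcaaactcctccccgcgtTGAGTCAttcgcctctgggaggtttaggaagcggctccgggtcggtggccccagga
ITGA10: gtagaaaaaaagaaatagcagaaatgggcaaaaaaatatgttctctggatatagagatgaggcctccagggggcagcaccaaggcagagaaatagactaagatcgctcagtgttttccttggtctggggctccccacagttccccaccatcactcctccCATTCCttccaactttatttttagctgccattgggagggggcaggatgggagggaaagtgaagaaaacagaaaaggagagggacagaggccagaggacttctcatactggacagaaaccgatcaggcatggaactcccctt
The first bases of the AP-1 matches lay at -125 and -69 in LAMA3, at -67 in LAMB3 and at -6 in ITGA5, counted from the start of transcription. Those of the TEAD matches lay at -82 in ITGA5 and at -91 in ITGA10. The windows at the other annotated starts of LAMB3 held neither motif and are not shown. A match describes the letters and does not show that a factor was bound.

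Between library pairs, the members called are counted here beside the share of all tested genes that met the same rule. Against untreated cells, palbociclib gave 3 members called higher and 2 called lower of 28, where 5.88% and 4.89% of all tested genes were called in these directions. Indisulam gave 6 higher and 6 lower, where 8.4% and 6.69% of all genes were called. The combination gave 6 higher and 6 lower, where 12.9% and 10.5% of all genes were called. With upper-quartile scaling the palbociclib split became 3 higher and 1 lower.

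The combination was then set against each single drug. Against palbociclib, 7 members were higher and 5 lower, where 9.57% and 7.38% of all tested genes were called. Against indisulam, no member was higher and 2 were lower, where 5.04% and 3.15% of all genes were called (8.19% either way), and upper-quartile scaling gave 1 higher and 2 lower. Among the 22 members with a mean of at least 20 CPM, 8 were called between indisulam and untreated and 9 between the combination and untreated, where 7.47% and 14.3% of genes at that level were called. At the same level, 10 were called between the combination and palbociclib and 2 between the combination and indisulam, where 9.17% and 2.86% of genes were. In all, 18 of the 28 members were called in at least 1 of the 3 drug libraries against untreated, where 30.4% of all tested genes were.

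The members did not move as a block. Their median log2 ratio was 0.13 for indisulam against untreated and 0.10 for the combination, beside 0.06 and 0.05 over all tested genes. The median size of the ratio, without its sign, was 0.84 for indisulam against 0.39 over all genes, and 0.78 for the combination against 0.51. For palbociclib against untreated the median size was 0.52, beside 0.34 over all genes. The summed level of the 26 integrin chains was 4256 CPM in the untreated, 4011 in the palbociclib, 4882 in the indisulam and 4910.5 in the combination library. That of the 12 laminin chains was 2509, 2267, 2294 and 2178 CPM. Both sums stayed within a log2 ratio of 0.21 of untreated, so that higher chains were offset by lower ones within each family.

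The effect of each drug was read from pairs of libraries that have no library in common. Indisulam was read as indisulam against untreated and as the combination against palbociclib. By both pairs, 5 of 28 members were called the same way, among them ITGAX and ITGB3 higher and ITGA10 and ITGB4 lower, where 8.53% of all tested genes were called the same way in both (4.87% higher and 3.66% lower). Past the spread bound in the same direction in both pairs were 19 members, 9 higher and 10 lower, where 35.7% of all genes were (20.7% higher and 15.1% lower). Palbociclib was read as palbociclib against untreated and as the combination against indisulam. No member was called the same way by both pairs, where 3.26% of all genes were (2.02% higher and 1.24% lower). Past the spread bound the same way in both were 8 members, where 24.9% of all genes were (12.6% higher and 12.3% lower). Among these were ITGAX and ITGB1, which were higher, and ITGA2B, ITGA5, ITGB3, ITGB4 and LAMB1, which were lower.

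**Figure D2:**
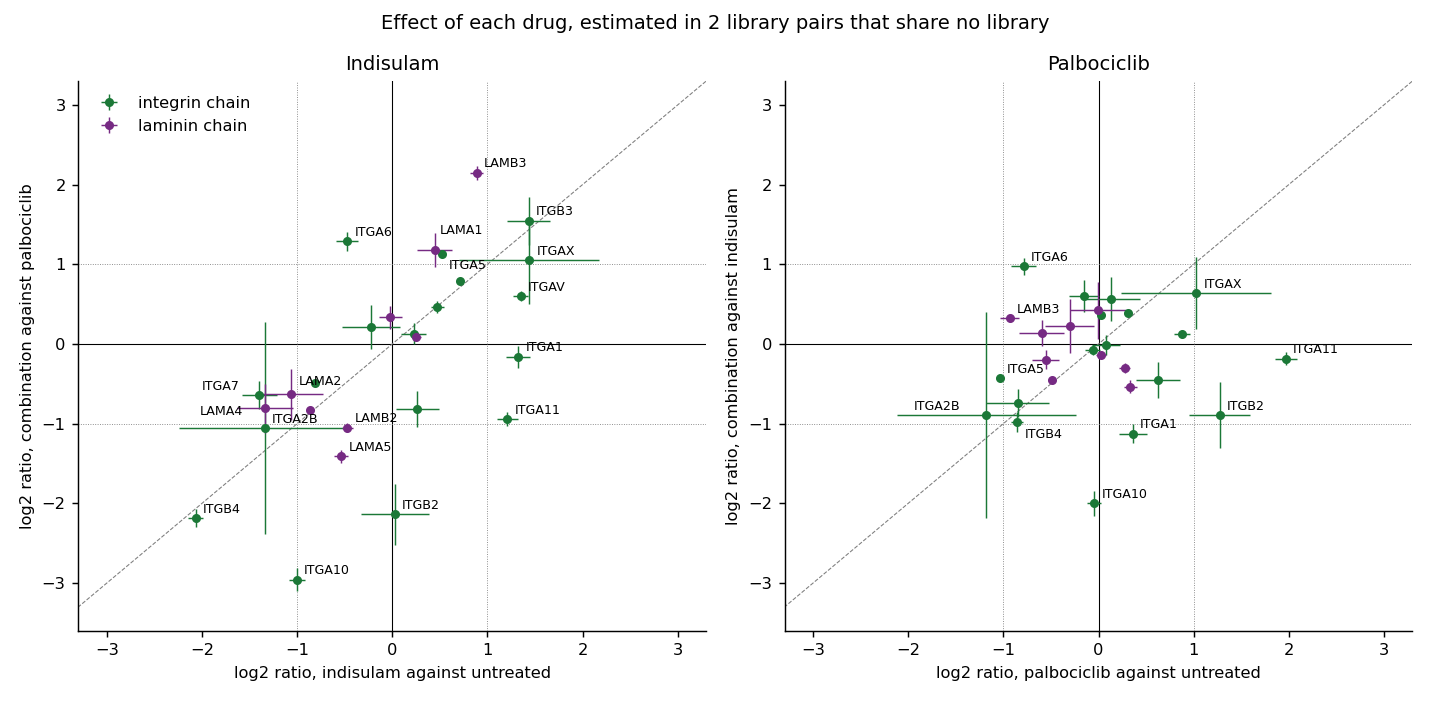
Effect of indisulam (left) and of palbociclib (right) on the tested chains described one by one as a log2 ratio, read without the other drug (horizontal axis) and with it (vertical axis), from pairs that share no library. Points are chains, bars are 95% counting intervals, dotted lines mark 2-fold and the dashed line marks equal effects. For indisulam, ITGB3 and ITGAX lie past 2-fold at the upper right and ITGB4 and ITGA10 at the lower left, and for palbociclib no chain drawn lies past 2-fold at either end of the dashed line.

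The collagen-binding alpha chains, ITGA1, ITGA2, ITGA10 and ITGA11, did not move together. ITGA10 binds fibrillar collagen and is best known from cartilage. It stood at 232 CPM in untreated cells, 224 with palbociclib, 116 with indisulam and 28.8 with the combination. Its levels were alike in the untreated and palbociclib libraries and lowest with the combination. The log2 ratio to untreated was -0.05 (-0.12, 0.03) for palbociclib, -1.003 (-1.09, -0.92) for indisulam, just past the threshold, and -3.003 (-3.15, -2.85) for the combination, an 8.02-fold lower level. Relative to indisulam alone, the combination lay at -2.00 (-2.15, -1.85). ITGA10 and ITGA1 were the members called between the combination and indisulam.

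ITGA11, a receptor for fibrillar collagen found on fibroblasts, stood at 63.4 CPM in untreated cells, 249 with palbociclib, 147 with indisulam and 129 with the combination. The untreated library was lowest and the palbociclib library highest. Its log2 ratio to untreated was 1.97 (1.86, 2.08) for palbociclib, the largest of any tested member in that comparison, 1.21 (1.10, 1.33) for indisulam and 1.03 (0.91, 1.15) for the combination. The last of these was 0.98 with TMM or DESeq2 scaling, below the threshold. ITGA1, which binds basement membrane collagen, stood at 51.2 CPM in untreated cells, 65.8 with palbociclib, 128 with indisulam and 58.8 with the combination. The indisulam library was highest, at a log2 ratio of 1.33 (1.20, 1.45) to untreated, and the combination was lower than indisulam at -1.12 (-1.24, -1.01). ITGA1 shares 499 exon bases, 2.69% of its exons, with PELO on the same strand, whose reads were 699, 753, 1300 and 1260 in the same order of libraries.

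ITGA2, the platelet and epithelial collagen receptor, stood at 59.1, 62.4, 69.0 and 68.2 CPM in the untreated, palbociclib, indisulam and combination libraries. These levels lay within the spread bound of each other, and the largest of its log2 ratios between libraries was 0.22 (0.09, 0.36). ITGA2 and ITGA1 lie on the same strand of chromosome 5 with 30130 bases between them. As a share of the reads of the 4 collagen-binding chains, which no scaling between libraries can move, ITGA10 took 57.1% (95% Wilson interval 55.8, 58.5) in untreated cells, 37.3% (36.3, 38.4) with palbociclib, 25.1% (24.2, 26.1) with indisulam and 10.1% (9.22, 11.1) with the combination. ITGA11 took 15.6%, 41.4%, 31.9% and 45.3%. These shares count reads, and ITGA11 has more exon bases. Per base of exon, ITGA10 held the largest share in untreated cells (69.8%), with palbociclib (51.2%, ITGA11 32.6%) and with indisulam (38.8%, ITGA11 28.3%), and ITGA11 did with the combination (42.0%, ITGA10 16.3%).

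The laminin-binding alpha chains, ITGA3, ITGA6 and ITGA7, gave no member called against untreated other than ITGA7. ITGA3 pairs with ITGB1 and binds epithelial laminins. It stood at 915 CPM in untreated cells, 934 with palbociclib, 519 with indisulam and 665 with the combination. Both libraries with indisulam were lower, by a log2 ratio of -0.82 (-0.86, -0.78) for indisulam against untreated and of -0.49 (-0.53, -0.45) for the combination against palbociclib, which are past the spread bound and short of 2-fold. ITGA7, known as the laminin receptor of muscle, stood at 56.4, 50.7, 21.4 and 32.5 CPM. Indisulam alone gave a log2 ratio of -1.40 (-1.58, -1.21) to untreated, and the muscle markers DES, MYH2 and CKM were at or below 0.42 CPM throughout. METTL7B, which shares 44 exon bases with ITGA7 on the opposite strand, had 205, 246, 62 and 145 reads, and BLOC1S1, which shares 119 on that strand, had 142, 155 and 136 reads with palbociclib, indisulam and the combination.

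ITGA6 can pair with ITGB1 or with ITGB4 and is the alpha chain of hemidesmosomes. It stood at 97.5 CPM in untreated cells, 56.4 with palbociclib, 70.2 with indisulam and 138 with the combination. Either drug alone lay below untreated and the combination lay above it. The log2 ratio to untreated was -0.79 (-0.92, -0.66) for palbociclib, -0.47 (-0.59, -0.36) for indisulam and 0.50 (0.40, 0.60) for the combination, and the combination was 2.44-fold higher than palbociclib at 1.29 (1.16, 1.41).

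The RGD-binding alpha chains were led by ITGA5, the main fibronectin receptor together with ITGB1. ITGA5 stood at 1082 CPM in untreated cells, 526 with palbociclib, 1549 with indisulam and 1149.6 with the combination. The palbociclib library was lowest, at a log2 ratio of -1.04 (-1.08, -0.998) to untreated, which was -0.99 and short of the threshold with upper-quartile scaling. Indisulam against untreated gave 0.52 (0.49, 0.55) and the combination against palbociclib 1.13 (1.09, 1.17), so that ITGA5 was higher with indisulam in both pairs. ITGA5 is the gene whose promoter window above held an AP-1 and a TEAD match.

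ITGAV pairs with several beta chains, binds vitronectin and fibronectin and activates latent TGF-beta. It stood at 139 CPM in untreated cells, 255 with palbociclib, 354 with indisulam and 386 with the combination. Every drug library was above untreated, with log2 ratios of 0.88 (0.79, 0.96), 1.35 (1.27, 1.43) and 1.47 (1.39, 1.55). Of the reads of the RGD-binding chains, ITGAV took 11.4% (10.9, 11.9) in untreated cells, 32.6% (31.7, 33.6) with palbociclib, 18.6% (18.2, 19.0) with indisulam and 25.1% (24.5, 25.7) with the combination. ITGA5 took 88.5%, 67.3%, 81.3% and 74.9%, so that it led in every library. ITGA2B, the fibrinogen receptor chain of platelets, had 28, 12, 14 and 6 reads, and all its calls against untreated rest on these counts.

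Among the alpha chains of leukocytes, ITGAE and ITGAX passed the filter. ITGAX, a chain of complement receptors on myeloid cells, had 18 reads in untreated cells, 38 with palbociclib, 67 with indisulam and 90 with the combination, or 1.43, 2.99, 4.01 and 6.27 CPM. Each drug library was above untreated, up to a log2 ratio of 2.07 (1.36, 2.79) for the combination. The call for palbociclib was lost with a pseudocount of 5, at 0.90, and that for the combination against palbociclib was lost with TMM, upper-quartile and DESeq2 scaling and with that pseudocount, at 0.98 to 0.99. The pan-leukocyte marker PTPRC stood at 12.2, 12.5, 17.5 and 11.1 CPM. Of the myeloid markers, LYZ stood at or below 0.21 CPM. CD14 was highest in untreated cells, at 9.24 CPM, where ITGAX was lowest. It stood at 5.44 CPM with palbociclib and lower still in both libraries with indisulam. The part of these markers in the ITGAX levels was not tested. ITGAE, which binds E-cadherin on epithelium, stood at 13.1, 14.4, 11.2 and 16.7 CPM and was called in no comparison. HASPIN, which shares 427 exon bases with ITGAE on the opposite strand, had 47, 75, 100 and 84 reads. In bulk RNA, fewer cells of a type and less RNA per cell cannot be told apart.

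Among the beta chains, ITGB4 and ITGB1 differed in opposite directions. ITGB4 is the beta chain of hemidesmosomes and pairs with ITGA6 alone. It stood at 422 CPM in untreated cells, 233 with palbociclib, 101 with indisulam and 51.2 with the combination. Each single drug lay below untreated and the combination below both. The log2 ratio to untreated was -0.86 (-0.92, -0.79) for palbociclib, -2.07 (-2.14, -1.99) for indisulam and -3.04 (-3.15, -2.93) for the combination, an 8.23-fold lower level and the most negative ratio of any tested member in that comparison, with an interval that overlaps that of ITGA10. With the other drug present the effects were of like size, -0.97 (-1.10, -0.85) for palbociclib and -2.18 (-2.30, -2.07) for indisulam. The ITGB4 gene spans chr17:75721328-75757818 on the plus strand of GRCh38. GALK1, a gene on the opposite strand whose span overlaps that of ITGB4 but shares none of its exon bases, had 733, 461, 387 and 202 reads, and whether strand was used in counting is not given in the sources used here.

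ITGB1 is the common beta chain that pairs with the collagen-binding, laminin-binding and several RGD-binding alpha chains. It stood at 863 CPM in untreated cells, 1069 with palbociclib, 1416 with indisulam and 1847 with the combination. The order of libraries was the reverse of that of ITGB4. Its log2 ratio to untreated was 0.31 (0.27, 0.34), 0.71 (0.68, 0.75) and 1.10 (1.06, 1.13), and the combination was 2.14-fold higher. Of the reads of the 8 beta chains, ITGB1 took 56.0% (55.3, 56.7) in untreated cells, 68.2% (67.6, 68.8) with palbociclib, 75.0% (74.5, 75.4) with indisulam and 82.9% (82.5, 83.3) with the combination. ITGB4 took 27.3% (26.7, 28.0), 14.9% (14.4, 15.4), 5.33% (5.09, 5.58) and 2.30% (2.14, 2.47). The plot of shares shows these chains beside those of the other families.

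ITGB3, the partner of ITGAV in the vitronectin receptor, stood at 16.4 CPM in untreated cells, 9.06 with palbociclib, 44.4 with indisulam and 26.6 with the combination. It was higher with indisulam and lower with palbociclib in both pairs of each drug, with log2 ratios of 1.43 (1.21, 1.65) and 1.55 (1.25, 1.85) for indisulam in its pairs and of -0.85 (-1.18, -0.52) and -0.74 (-0.92, -0.56) for palbociclib. ITGB5, another partner of ITGAV, stood at 211, 203, 294 and 279 CPM, higher in both libraries with indisulam by log2 ratios of 0.47 (0.41, 0.54) and 0.46 (0.39, 0.53). ITGB8, which with ITGAV binds latent TGF-beta, stood at 20.3, 31.4, 24.4 and 17.8 CPM and was called in no comparison between libraries. ITGB2, the beta chain of leukocyte integrins, stood at 8.68 CPM in untreated cells, 21.1 with palbociclib, 8.86 with indisulam and 4.74 with the combination. Palbociclib alone stood apart for ITGB2, 2.42-fold above untreated at a log2 ratio of 1.28 (0.96, 1.60) and 4.41-fold above the combination. The antisense gene ITGB2-AS1 overlaps 303 exon bases of ITGB2 and had 9, 43, 43 and 52 reads. The endothelial marker PECAM1 was highest with palbociclib, at 40.9 CPM against 15.2 CPM in untreated cells. Of the other endothelial markers, CDH5 was highest with palbociclib at 1.81 CPM, KDR with indisulam at 3.83 and VWF with the combination at 1.18. The leukocyte markers PTPRC and CD14 stood at 12.5 and 5.44 CPM with palbociclib, against 12.2 and 9.24 CPM in untreated cells. The part of these genes in the ITGB2 levels was not tested.

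**Figure D3:**
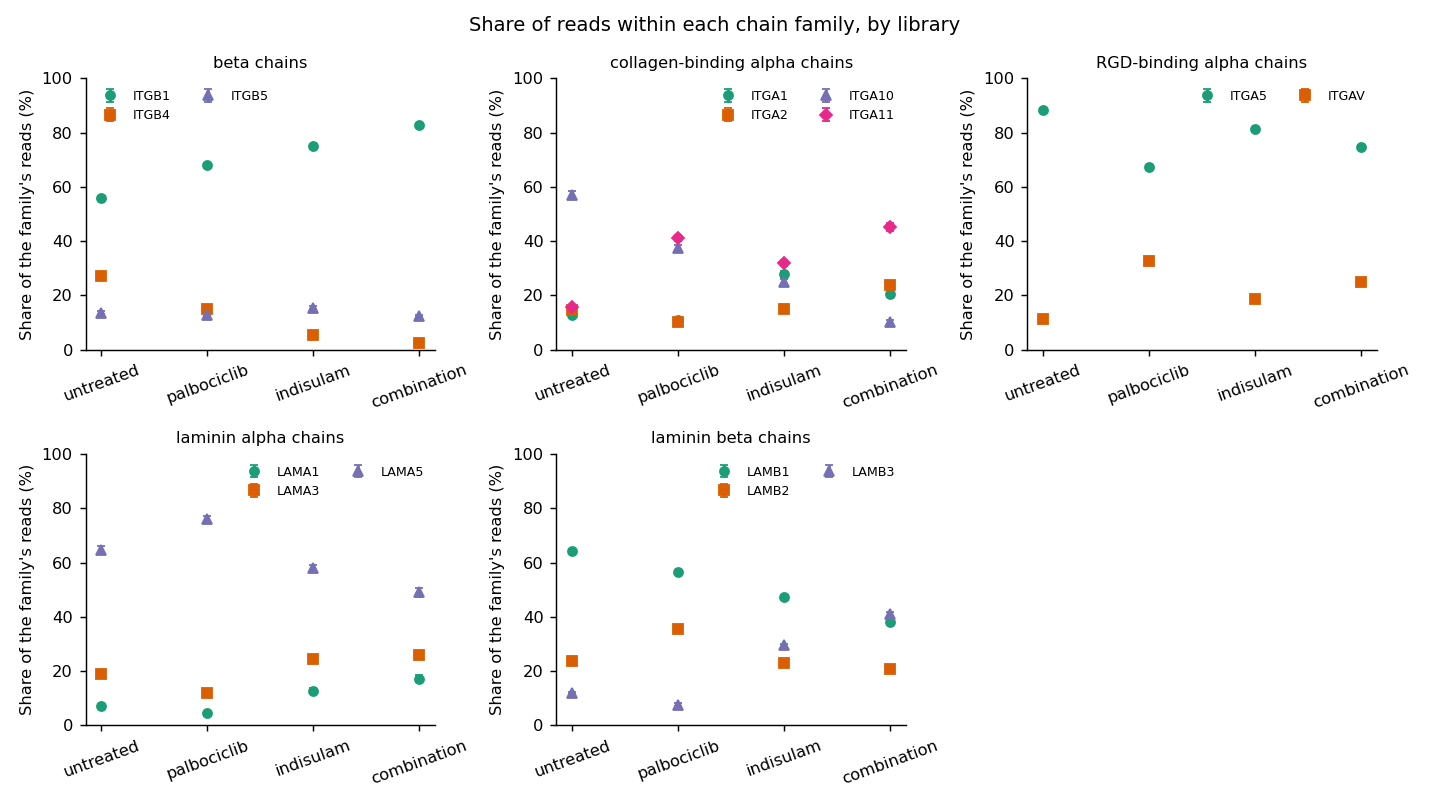
Share of the reads of each chain family taken by its main chains, in percent, in the 4 libraries, with 95% Wilson intervals that are mostly smaller than the points. Among beta chains, ITGB1 goes from 56.0% in untreated cells to 82.9% with the combination and ITGB4 from 27.3% to 2.30%, and among laminin beta chains LAMB3 goes from 11.9% to 41.0%.

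LAMC1, the gamma chain of most laminins, stood at 450.5, 458, 536 and 487 CPM in the untreated, palbociclib, indisulam and combination libraries. None of its log2 ratios between libraries exceeded 0.25 (0.20, 0.30), within the spread bound.

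Among the laminin beta chains, LAMB3 belongs to the epithelial trimer and LAMB1 and LAMB2 to most other laminins. LAMB3 stood at 191 CPM in untreated cells, 99.8 with palbociclib, 353 with indisulam and 443 with the combination. Palbociclib alone was the lowest library and the combination the highest. Its log2 ratio to untreated was -0.93 (-1.03, -0.83) for palbociclib, 0.89 (0.82, 0.96) for indisulam and 1.22 (1.15, 1.28) for the combination, and the combination was 4.44-fold above palbociclib at 2.15 (2.06, 2.24). LAMB1 stood at 1034 CPM in untreated cells, 735 with palbociclib, 569 with indisulam and 414 with the combination. It was lower in each drug library, down to -1.32 (-1.36, -1.28) with the combination, a 2.50-fold lower level. LAMB2, the beta chain of synaptic and kidney laminins, stood at 381, 461, 275 and 223 CPM, and the combination was 2.07-fold below palbociclib at -1.05 (-1.11, -0.99).

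Within the laminin beta chains the share of LAMB3 was lowest with palbociclib and highest with the combination. LAMB3 took 11.9% (11.4, 12.3) of the laminin beta-chain reads in untreated cells, 7.70% (7.30, 8.12) with palbociclib, 29.5% (28.9, 30.2) with indisulam and 41.0% (40.2, 41.8) with the combination. LAMB1 took 64.4%, 56.7%, 47.5% and 38.3%. The order of the beta chains depends on length. Per base of exon, LAMB1 and LAMB2 were nearly equal in untreated cells (36.5% each), LAMB2 was highest with palbociclib (52.3%), and LAMB3 was highest with indisulam (51.8%) and with the combination (63.5%). Per kb of the longest transcript, LAMB1 was highest in untreated cells, with palbociclib (109.2 CPM per kb, LAMB2 81.0) and, narrowly, with indisulam (84.4, LAMB3 82.1), and LAMB3 with the combination (102.9, LAMB1 61.4). LAMB1 shares 300 exon bases, 1.61% of its exons, with DLD on the opposite strand, whose reads were 1306, 1237, 1689 and 1894.

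Of the laminin alpha chains, LAMA2, LAMA4 and LAMA5 were lower with indisulam past the spread bound in both pairs and LAMA1 was higher. LAMA5, the most read alpha chain and the one of most adult basement membranes, stood at 259 CPM in untreated cells, 327 with palbociclib, 178 with indisulam and 123 with the combination. The combination was lowest, at a log2 ratio of -1.08 (-1.16, -0.99) to untreated and -1.41 (-1.49, -1.33) to palbociclib. ADRM1, which shares 244 exon bases with LAMA5 on the opposite strand, was read most in that library, with 679, 957, 1424 and 1580 reads. LAMA5 took 64.8% (63.5, 66.1) of the alpha-chain reads in untreated cells and 49.1% (47.4, 50.7) with the combination. LAMA3, the alpha chain of the epithelial trimer, stood at 76.1, 51.8, 74.9 and 65.4 CPM and was called in no comparison. It was lower with palbociclib than without treatment at -0.56 (-0.70, -0.41), and its ratio of indisulam to untreated was -0.02 (-0.14, 0.10).

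LAMA4, a chain of vessel and muscle laminins, stood at 21.1, 17.1, 8.32 and 9.75 CPM. Both libraries with indisulam were lower than both without it, with log2 ratios to untreated of -1.34 (-1.63, -1.04) for indisulam and -1.11 (-1.40, -0.81) for the combination. LAMA2, the main alpha chain of muscle and nerve, stood at 14.8, 14.7, 7.06 and 9.47 CPM, with -1.06 (-1.39, -0.73) for indisulam. The summed levels of muscle and Schwann cell markers were at most 0.49 CPM and 0.88 to 3.90 CPM, and their part in the levels of LAMA2 and LAMA4 was not tested. LAMA1, the chain of embryonic laminin, stood at 28.7, 18.9, 39.1 and 43.0 CPM, and the combination was 2.27-fold above palbociclib at 1.18 (0.97, 1.40).

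LAMA3 and LAMB3, whose products join in 1 trimer, therefore differed. LAMB3 was 2.32-fold higher with the combination than without treatment. LAMA3 had a log2 ratio of -0.22 (-0.35, -0.09), which is within the spread bound. The chains of the hemidesmosome receptor differed too, with ITGB4 8.23-fold lower and ITGA6 1.41-fold higher. Both LAMA3 and LAMB3 carry TGANTCA in the windows printed above, while the windows at the other annotated starts of LAMB3 do not. The part of TGANTCA in their levels was not tested.

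Levels of different genes were compared per kilobase of exon. Without treatment ITGA5 was highest at 147 CPM per kb, followed by ITGA3 at 93.3, ITGB4 at 62.4, ITGB1 at 59.3, LAMB1 at 55.6, LAMB2 at 55.5 and LAMC1 at 53.3. With the combination ITGA5 stood at 156 CPM per kb, followed by ITGB1 at 127, LAMB3 at 95.4, ITGA3 at 67.8 and LAMC1 at 57.7. ITGB4 had left the top of the order at 7.57 CPM per kb. The order depends on the length used, since ITGB1 and LAMB1 stood at 154 and 153 CPM per kb of their longest transcript without treatment, and for ITGA6 and ITGB4 this matters little, at 16.8 and 71.5. By that length ITGB1 was highest with the combination at 329 CPM per kb, followed by ITGA5 at 230, ITGA3 at 121 and LAMB3 at 103.

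The chains were also read as the complexes they are known to form. Of 24 known integrin pairs, both chains reached 1 CPM for 15 in the untreated, 14 in the palbociclib, 15 in the indisulam and 16 in the combination library. Both chains reached 5 CPM for 13 pairs in every library, so that the differences rest on chains below 5 CPM. Of 14 known laminin trimers, all chains reached 1 CPM for 11 in each library. The lower of the chains of the ITGA6 and ITGB4 pair, in CPM per kb, was ITGA6 at 14.6, 8.45 and 10.5 in the untreated, palbociclib and indisulam libraries and ITGB4 at 7.57 with the combination. For the ITGA10 and ITGB1 pair it was ITGA10, at 37.1, 36.0, 18.5 and 4.62. RNA levels do not measure how much of a complex was assembled.

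The combination was set against the sum of both single-drug effects. There, 2 members departed upward and 5 downward by at least 2-fold, where 3.93% and 3.83% of all tested genes did (7.77% either way). Upward were ITGA6 at 1.76 (1.59, 1.93) and LAMB3 at 1.26 (1.15, 1.37). Downward were ITGB2 at -2.17 (-2.69, -1.65), ITGA11 at -2.15 (-2.30, -2.01), ITGA10 at -1.96 (-2.13, -1.78), ITGA1 at -1.49 (-1.67, -1.30) and ITGB8 at -1.08 (-1.40, -0.76). Of the 4 collagen-binding alpha chains, 3 departed downward, and ITGA2 stood at -0.09 (-0.28, 0.10). Members called between the combination and untreated that stayed near the sum included ITGB4 at -0.12 (-0.26, 0.02), LAMB1 at 0.03 (-0.03, 0.09) and ITGB1 at 0.08 (0.03, 0.12). For these chains the log2 effects of the drugs added up to within the spread bound.

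**Figure D4:**
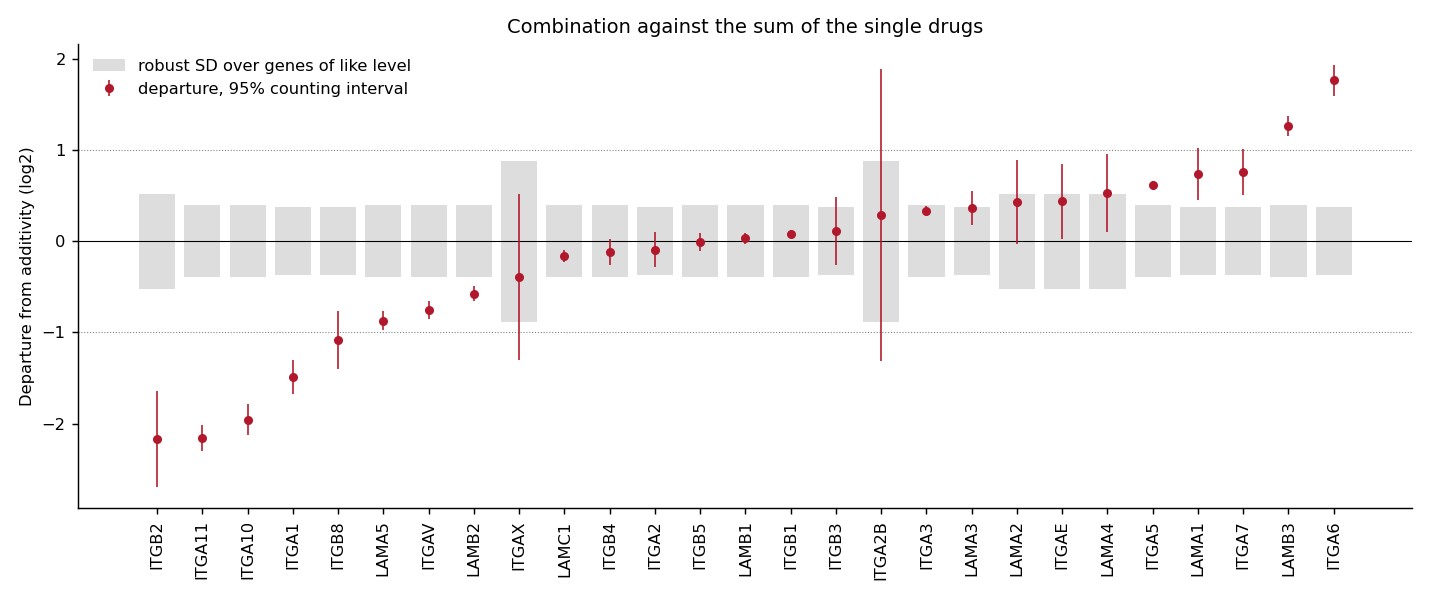
Departure of the combination from the sum of the single drugs for the tested chains described one by one, as a log2 value with its 95% counting interval. Grey bars span 1 robust standard deviation of the departure over all tested genes of like level on either side of 0, and dotted lines mark 2-fold. ITGB2, ITGA11, ITGA10, ITGA1 and ITGB8 lie below the lower line and LAMB3 and ITGA6 above the upper one, while ITGB4, LAMB1 and ITGB1 lie inside the grey bars.

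The genes around the chains, in lists of integrin activators and adaptors, focal adhesion kinases, integrin partners, hemidesmosome, other laminin receptors, basement membrane and other integrin ligands, held 84 tested genes of 90. Of these, 15 were called higher and 8 lower for the combination against untreated, where 12.9% and 10.5% of all tested genes were. For indisulam the counts were 11 and 4, where 8.4% and 6.69% of all genes were called, and for palbociclib 7 and 5, where 5.88% and 4.89% were. Of the 18 other integrin ligands tested, 7 were higher and 1 lower for the combination, where 12.9% and 10.5% of all genes were, and their median log2 ratio was 0.93, beside 0.05 over all tested genes. Whether the lists differ was not tested. Among them TNC (tenascin C) stood at 189, 437, 253 and 981 CPM in the untreated, palbociclib, indisulam and combination libraries. POSTN (periostin), a ligand of integrins with ITGAV, stood at 33.1, 178, 185 and 218 CPM, and FBN1 (fibrillin) at 228, 417, 370.4 and 673 CPM. VCAM1, the endothelial ligand of ITGA4, stood at 6.61, 23.1, 10.8 and 20.5 CPM.

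In the basement membrane list, 3 of 14 tested genes were higher and 2 lower for the combination against untreated, where 12.9% and 10.5% of all genes were. COL4A1 stood at 70.5, 74.6, 217 and 175 CPM and NTN4 at 64.6, 76.4, 137 and 189 CPM, while NID1, which links laminin to collagen, stood at 204, 70.8, 126 and 47.8 CPM and COL4A3 at 9.88, 10.1, 3.05 and 1.88 CPM. Of the other laminin receptors, SDC4 stood at 206, 207, 309 and 441 CPM and BCAM, a receptor for LAMA5, at 9.32, 15.1, 16.6 and 4.04 CPM. BCAM and LAMA5 were both lowest with the combination. The hemidesmosome gene COL17A1 stood at 3.82, 3.31 and 7.12 CPM in the untreated, palbociclib and indisulam libraries and was higher with the combination at a log2 ratio of 2.36 to untreated, in the library where ITGB4 was lowest. It was the 1 gene called of 3 in the hemidesmosome list in that comparison, where 12.9% and 10.5% of all genes were called higher and lower. The others, PLEC and DST, stood at -0.14 (-0.19, -0.10) and -0.58 (-0.64, -0.52).

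Inside the cell, adaptors and kinases act on the tails of integrins. Of 22 activators and adaptors, 2 were higher and 2 lower for the combination against untreated, where 12.9% and 10.5% of all genes were, so that neither count exceeds its background. ILK, which binds the tail of ITGB1, stood at 196, 159.2, 129 and 77.5 CPM and the adaptor TNS2 at 328, 211, 151 and 72.5 CPM. LIMS1, a partner of ILK, stood at 65.0, 68.8, 118 and 141 CPM and its relative LIMS2 at 0.88, 8.82, 3.05 and 11.5 CPM. Of 12 kinases and docking proteins, 1 was higher and 1 lower in that comparison, which also does not exceed 12.9% and 10.5%. FYN was the higher, at 34.3, 43.7, 86.9 and 74.0 CPM, and PTK2B the lower, at 110.0, 46.2, 36.4 and 28.0 CPM. PTK2, the focal adhesion kinase itself, stood at 129, 108, 123 and 132 CPM and was not called. Of 11 integrin inhibitors and partners, 0 were higher and 1 lower, where 12.9% and 10.5% of all genes were. The lower gene was SHARPIN, at 34.1, 32.5, 20.2 and 16.4 CPM.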

How the data were processed

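RNA sequencing counts of 4 libraries were used, 1 per condition, grouped by the treatment in the sample labels. The authors prepared stranded poly(A) libraries, and the deposited values are raw counts of reads per Ensembl gene. The submitters' processing notes name TopHat2 2.1, HTSeq and GRCh38, and the strand setting and annotation release are not given in the sources used here. Tallies of unassigned and ambiguous reads were kept apart from the 60279 genes (2.60% to 2.83% ambiguous among assigned and ambiguous reads).

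Counts were scaled to the mean library total, a pseudocount of 1 was added, and log2 ratios were given a 95% Poisson interval. Genes were called at 2-fold with an interval that left out 0, among 14269 genes at a mean of at least 1 CPM. Intervals, and the floor of 3 counts (0.180 to 0.239 CPM), cover counting error only, as PCR copies of a molecule could not be recognised. No p-value was computed. The scripts were tested on simulated Poisson counts with planted changes. These counts held no variation between libraries beyond counting error, so the test checks the code and not the calls. Alternatives were TMM and upper-quartile factors (edgeR 4.0.16), DESeq2 1.42.0 size factors, totals without mitochondrially encoded genes, pseudocounts of 0.5 and 5, other filters and a 1.5-fold threshold. Positions and exon lengths are from GENCODE 44 on GRCh38. Python 3.11.15 and R 4.3.3 were used.

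Every member at a mean of 1 CPM or more was named with its levels, apart from 1 that is counted but not otherwise reported here, and from each list of pathway genes up to 4 called genes at 5 CPM or more with the largest ratio of combination to untreated. PTK2 and some genes in the closing section were named after their values were seen. The members and lists were chosen with earlier results of these data known. Protein-coding genes with a symbol that share exon bases with a tested member are given beside it.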

Additional observations from a re-analysis of the deposited data

Results flagged for a closer look

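For 6 chains, a drug had opposite signs without and with the other drug, each with a 95% counting interval that left out 0. Only chains whose departure from additivity was called at 2-fold were flagged. Such a departure was called for 7.77% of all tested genes, and the share meeting the whole rule was not counted. These are differences between single libraries, and whether the effects differ was not tested. Both drugs changed sign for ITGA1 (departure from additivity -1.49), ITGA11 (-2.15), ITGA6 (1.76) and ITGB8 (-1.08). For ITGA11, palbociclib gave a log2 ratio of 1.97 without indisulam and -0.18 with it, and indisulam gave 1.21 without palbociclib and -0.94 with it. ITGA6 was the reverse, with -0.79 and 0.97 for palbociclib and -0.47 and 1.29 for indisulam. For ITGA1 the values were 0.36 and -1.12 for palbociclib and 1.33 and -0.16 for indisulam, and for ITGB8 they were 0.63 and -0.46 for palbociclib and 0.26 and -0.82 for indisulam. Palbociclib alone changed sign for ITGB2 (-2.17), with 1.28 and -0.89, and for LAMB3 (1.26), with -0.93 and 0.33. Of these values, -0.18 and -0.16 lay within the spread bound.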

How the results depend on the processing

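Of the 50 member ratios called, 434 of 443 recomputed values kept their call and direction, 9 fell short of the threshold and none turned its direction. The other filters and the 1.5-fold threshold could not remove a call from a member still tested, so part of the values kept was fixed in advance. Those 9 concern ITGA11, ITGA5, ITGAX and ITGA2B, whose values stand near 2-fold or, for the last pair, on few reads. The number of members called for palbociclib against untreated was 5, and it was 3 with a pseudocount of 5, 3 with a filter at 5 CPM and 13 at a 1.5-fold threshold. Of the 14269 tested genes, 839 were called higher and 698 lower in that comparison. The counts were 695 and 591 with that pseudocount, 438 and 395 of 11376 with that filter and 1801 and 1737 at 1.5-fold. At 1.5-fold, 20 members were called for the combination against palbociclib (12 at 2-fold), 8 for the combination against indisulam (2 at 2-fold) and 12 for the departure from additivity (7 at 2-fold). Of the 14269 tested genes, 2620 were then higher and 2064 lower for the combination against palbociclib. The counts were 1714 and 1449 for the combination against indisulam and 1308 and 1376 for the departure. For members called the same way in both pairs, 1.5-fold gave 3 for palbociclib (0 at 2-fold) and 12 for indisulam (5 at 2-fold). Over the 14269 tested genes, 1.5-fold gave 746 higher and 638 lower for palbociclib and 1488 and 1165 for indisulam. Without a filter on low counts, 5 members were called for the combination against indisulam, 1 for palbociclib in both pairs, and the spread bound over all genes was 0.637 in place of 0.330, since that setting adds genes of few reads. Of its 29056 genes, 1181 were higher and 573 lower for the combination against indisulam, and 343 and 197 for palbociclib in both pairs. The other scalings moved no median over all tested genes by more than 0.1 on the log2 scale. No paired analysis was possible because each condition has 1 library. For the same reason no library could be left out. Gene counts give no isoform levels, and the sample labels and the series text differ on the doses and duration of treatment.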

Other observations

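Among the 84 tested genes of the pathway lists, 3 departed upward from the sum of the single drugs by at least 2-fold and 8 downward, where 3.93% and 3.83% of all tested genes did, and they were picked out after their values were seen. Upward were SDC1 (syndecan, a laminin co-receptor) at 1.90, the hemidesmosome collagen COL17A1 at 1.68 and the tetraspanin CD9, a lateral partner of integrins, at 1.01. SDC1 stood at 50.7 CPM in untreated cells, 23.5 with palbociclib, 30.5 with indisulam and 52.6 with the combination, lower with either drug alone as ITGA6 was. Downward were BCAM at -2.71, POSTN at -2.19, LTBP3 at -1.71, LIMS2 at -1.34, AGRN at -1.26, COL4A5 at -1.06, COL18A1 at -1.04 and DST at -1.004. COL18A1, COL4A5 and AGRN are basement membrane components, and the first stood at 108, 242, 118 and 127 CPM in the same order of libraries. FN1, the main ligand of ITGA5, stood at 10312, 19973, 12703 and 15195 CPM and was called in no comparison.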
